A study of Mus musculus with 4 samples.

Results

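The 47 genes described here are interferon-stimulated genes of the mouse, which cells switch on when interferon binds its receptors, apart from 2 that encode receptor chains. They were chosen by name, as known targets of interferon or chains of its receptors, with earlier results of the same WT against Vil-CREPTKO comparison in view. Their differences between the groups are therefore given as a description, and no test rests on the choice. The count table held 53845 rows, 17504 genes had enough counts to be tested, and all 47 were among those. By the interferon that is known to induce each gene most, 27 were classed as type I-like and 18 as gamma-like. The 2 receptor genes formed their own class.

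RNA was sequenced from intestinal crypts, the epithelial pits that hold the stem cells, released with EDTA from C57BL/6 mice, with no treatment named in the labels. The WT group (2 libraries) was labelled wild type. In the Vil-CREPTKO group (2 libraries), Cre driven by the villin promoter removed the loxP-flanked exon of Rprd1b, the gene for CREPT, a protein that binds RNA polymerase II. The labels do not give age, and they do not say whether the WT mice carried the floxed allele. The study's breeding table lists WT mice from a cross in which both parents were homozygous for that allele. It does not tie those mice to these libraries. The study reports using mice of both sexes. Villin-Cre acts in epithelial cells, so other cells in a crypt preparation keep CREPT. The study's methods and legends describe the replicates as biological, each from a different mouse.

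Total counts ranged from 47241049 to 49369315 per library. Rprd1b, the deleted gene, stood at 60.5 and 61.6 CPM (the read count scaled to the library's total over tested genes after TMM normalization) in the WT libraries and at 26.3 and 29.0 CPM in the Vil-CREPTKO libraries, giving a log2 fold change of -1.14 with a standard error (SE) of 0.12. The WT libraries differed in sex. Xist, which is transcribed from the inactive X chromosome of females, reached 863 CPM in WT replicate 2 and 0.299 to 0.530 CPM in the other 3 libraries, and 4 Y-linked genes summed to 0 CPM in WT replicate 2 and to 148 to 164 CPM in the others. The results below are given with and without this library, since it stood apart in the interferon-stimulated genes too. Summed epithelial markers ranged from 7760 to 8680 CPM and crypt markers from 3980 to 6130 CPM, so markers of the labelled tissue were present in every library. Villus enterocyte markers were present too, at 9650 to 17600 CPM.

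Interferons of type I (alpha, beta) and of type III (lambda) signal through the kinases JAK1 and TYK2 to a complex that holds STAT2 and IRF9 and binds the interferon-stimulated response element (ISRE). Interferon gamma signals through JAK1 and JAK2 to the gamma-activated site (GAS). The products degrade viral RNA, sense foreign nucleic acid, attack the vacuoles of intracellular microbes or call in lymphocytes, and the gut epithelium is known for its response to interferon lambda.

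The promoters were read first, because their sequence does not depend on the counts. Apart from the receptor genes, the genes were chosen as known interferon targets and classed by the interferon that induces them. The shares of ISRE and GAS cores among them are therefore a description and not an independent finding. RefSeq windows of mouse build GRCm38.p6, from 250 bases before to 50 bases after the annotated start of transcription, were found for 35 of the 47 genes. The table held none for Usp18, Oas2, Mx1, Mx2, Dhx58, Zbp1, Parp9, Parp14, Gbp4, Gbp6, Gbp8 and Iigp1. The ISRE core searched was GAAANNGAAA on either strand, and the GAS core was TTCNNNGAA, which reads the same on both strands. A gene with more than 1 window was counted once, by the window with the most matches. At least 1 ISRE core lay in 21 of the 35 genes (60%), against 3.99% of the 27025 genes with a window. A GAS core lay in 10 (28.6%), against 9.55% of all genes. The 6 promoter sequences printed here cover the 180 bases before the start, 5′ to 3′, with ISRE and GAS cores in capitals, and show 3 arrangements that recur among the genes described below.
Isg15: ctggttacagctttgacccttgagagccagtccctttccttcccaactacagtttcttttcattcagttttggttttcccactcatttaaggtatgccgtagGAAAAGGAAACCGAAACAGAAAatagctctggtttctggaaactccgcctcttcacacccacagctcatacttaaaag
Ifit3: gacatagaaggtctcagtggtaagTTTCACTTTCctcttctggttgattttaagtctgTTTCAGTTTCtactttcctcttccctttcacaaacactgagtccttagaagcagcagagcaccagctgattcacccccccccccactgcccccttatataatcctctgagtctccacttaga
Oas1g: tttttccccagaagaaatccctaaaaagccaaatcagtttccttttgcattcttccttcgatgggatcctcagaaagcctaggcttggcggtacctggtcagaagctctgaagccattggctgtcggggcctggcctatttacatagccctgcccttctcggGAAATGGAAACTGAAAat
Oas1a: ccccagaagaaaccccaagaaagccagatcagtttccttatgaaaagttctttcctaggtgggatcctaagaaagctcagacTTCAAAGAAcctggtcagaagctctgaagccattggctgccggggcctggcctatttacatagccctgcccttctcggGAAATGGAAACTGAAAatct
Irgm2: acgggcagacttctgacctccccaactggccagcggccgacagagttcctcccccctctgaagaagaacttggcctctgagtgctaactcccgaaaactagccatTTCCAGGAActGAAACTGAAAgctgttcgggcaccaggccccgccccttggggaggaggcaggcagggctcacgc
Igtp: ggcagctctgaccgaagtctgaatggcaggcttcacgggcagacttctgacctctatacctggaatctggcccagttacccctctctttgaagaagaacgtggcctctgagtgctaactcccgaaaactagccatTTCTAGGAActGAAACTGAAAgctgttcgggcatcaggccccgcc

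These sequences lie at chr4:156200819-156200998 (minus strand) for Isg15, chr19:34583349-34583528 (plus) for Ifit3, chr5:120887614-120887793 (minus) for Oas1g, chr5:120907526-120907705 (minus) for Oas1a, chr11:58214797-58214976 (plus) for Irgm2 and chr11:58199376-58199555 (plus) for Igtp. Isg15, a ubiquitin-like modifier, had 3 overlapping ISRE cores, the first starting 78 bases before the start of transcription. Ifit3, which binds viral RNA together with its relatives, had 2 separate cores on the opposite strand. Oas1g and Oas1a, members of the 2′-5′ oligoadenylate synthetase family, shared a pair of overlapping cores that began 18 and 20 bases before the start, and the full windows were identical at 88.8% of aligned bases. Oas1a also had a GAS core, which Oas1g lacked. Irgm2 and Igtp, immunity-related GTPases (IRGs) of the vacuole defence, carried a GAS core followed closely by an ISRE core, and their windows were identical at 92.1% of aligned bases. The same GAS and ISRE order appeared in Tgtp1 and Tgtp2, a further pair of IRGs (80.5% identity). It was not confined to IRGs, since a GAS core also began before an ISRE core in Bst2, Gbp7 and Oas1a. Among the IRGs, Irgm1 had ISRE cores without a GAS core, and Ifi47 had neither. How the counting treated reads that fit more than 1 gene of a family was not given, and transcript sequences were not compared, so values of close relatives in the OAS, IRG and GBP families are uncertain to that extent.

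By class, among genes with a window, an ISRE core lay in 11 of 19 type I-like genes (57.9%) and in 10 of 14 gamma-like genes (71.4%). A GAS core lay in 3 type I-like genes (15.8%) and in 7 gamma-like genes (50%). The 2 receptor genes had neither. Across the windows, 31 ISRE matches had a median start 70 bases before the start of transcription, and 12 GAS matches one 94 bases before it. A match is a description of letters and not evidence that a factor bound there.

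**Figure D1:**
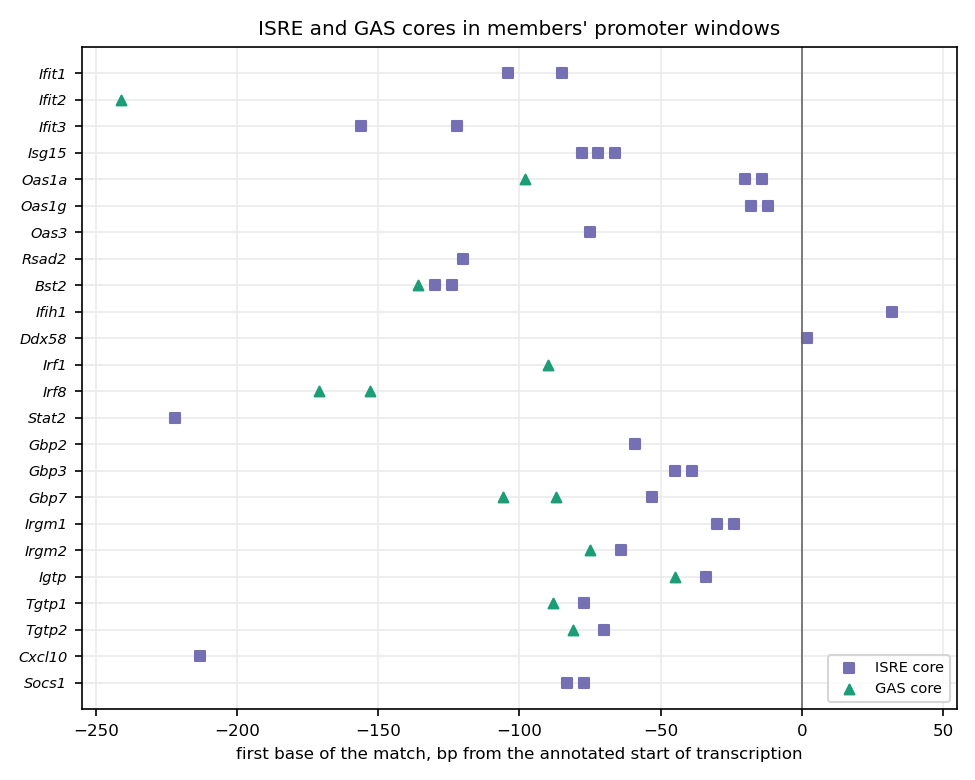
Position of each ISRE core (squares) and GAS core (triangles) relative to the annotated start of transcription (x axis, bases), for the genes whose window held a match. Of the matches, 21 of 31 ISRE and 7 of 12 GAS cores begin within 100 bases before the start, and the IRG pairs Irgm2 and Igtp, and Tgtp1 and Tgtp2, have a GAS core just before an ISRE core.

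Across the 47 genes, Vil-CREPTKO crypts had the lower mean in 38 and the higher in 9 by log2 fold change, with a median of -0.36 (range -1.97 to 0.66) against -0.01 over all genes tested. Oas1g alone passed the call rule (edgeR's quasi-likelihood test, Benjamini-Hochberg adjusted p under 0.05, and more than 1 in absolute log2 fold change), where 1.34% of all genes were called lower. No gene of the 47 was called higher, where 0.297% of all genes were. At any fold change, Oas1g and Irf7 passed the adjusted p threshold on the lower side (2.29% of all genes) and none on the higher side (0.423% of all genes). At an unadjusted p under 0.05, 12 of the 47 passed, all on the lower side, where 9.76% of all genes passed on that side and 4.49% on the higher side. DESeq2 called 2 of the 47 lower and 0 higher, where it called 308 lower and 87 higher over the 28324 genes fitted. The counts among the 47 describe genes that were selected on results of this comparison, so nothing is read from them.

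Both Vil-CREPTKO libraries lay below both WT libraries in 21 of the 47 genes (44.7%), where 24.2% of all genes did. They lay above both in 1 gene, Ifngr1 (2.13%), where 21% of all genes did, and the groups overlapped in the other 25. In bulk RNA, fewer cells of a type and less RNA per cell cannot be told apart.

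**Figure D2:**
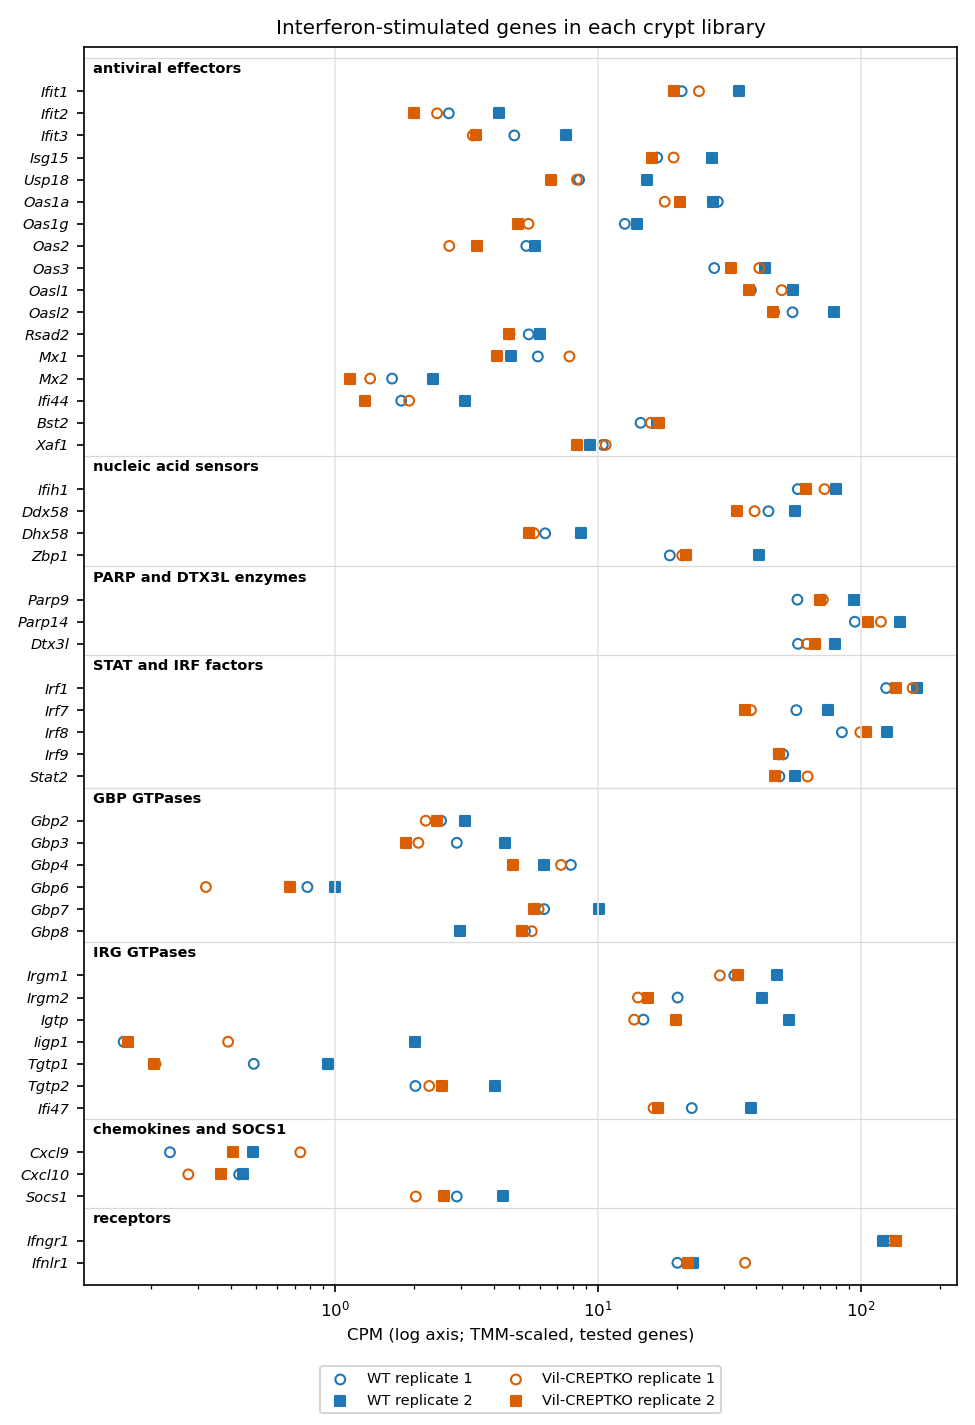
CPM of each of the 47 genes (rows, by role) in the 4 libraries, on a log axis; circles are replicate 1 and squares replicate 2, WT in blue and Vil-CREPTKO in orange. WT replicate 2, the filled blue square, is the rightmost point in 36 of the 47 rows.

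A single library carried much of this pattern. WT replicate 2 was the highest of the 4 libraries in 36 of the 47 genes (76.6%), against 24.5% of all genes tested. Its CPM was at least 1.5 times that of WT replicate 1 in 18 genes (38.3%), where 6.62% of all genes passed that ratio, and the median ratio over the 47 was 1.44. Between the Vil-CREPTKO libraries, replicate 2 reached 1.5 times replicate 1 in 1 gene, Gbp6, where 8.36% of all genes did. As a deviation from the mean of the 4 libraries on the log2 scale, the median of the 47 genes was -0.03 in WT replicate 1, 0.42 in WT replicate 2, and lay at -0.15 and -0.18 in the Vil-CREPTKO replicates. Over all genes tested these medians lay between -0.01 and 0.02.

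Without WT replicate 2, the 47 genes had a log2 fold change with a median of -0.10, with 26 negative and 21 positive. Then 12 genes changed sign from negative to positive, namely Ifit1, Isg15, Oasl1, Ifih1, Zbp1, Parp9, Parp14, Dtx3l, Irf8, Igtp, Iigp1 and Tgtp2. Without WT replicate 1 the median was -0.62, with 40 negative. In that fit Igtp had a log2 fold change of -1.67 and Iigp1 one of -2.86, against 0.17 and 0.80 without WT replicate 2. Oas1g was called in every fit, and 23 genes stayed negative under every alternative. WT replicate 2 was also the library of the other sex, and sex, mouse and library cannot be told apart within the WT group.

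**Figure D3:**
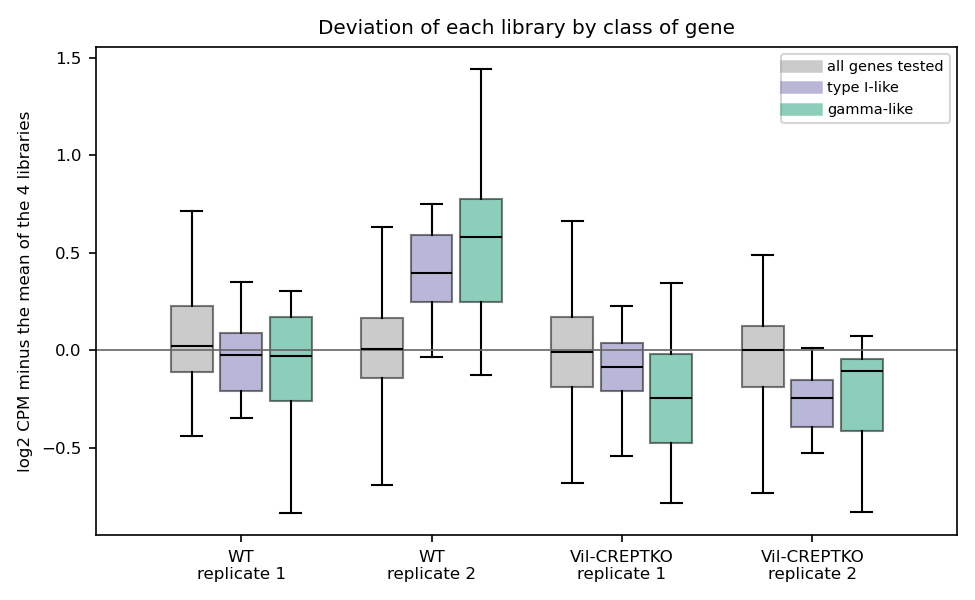
Deviation of log2 CPM in each library from the mean of the 4 libraries (y axis) for all genes tested, the type I-like genes and the gamma-like genes; boxes hold the middle 50% of genes with the median as a line, and whiskers reach the 5% and 95% points. The median of the gamma-like genes stands at 0.58 in WT replicate 2 and between -0.25 and -0.03 in the other libraries.

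The 27 type I-like genes had a log2 fold change with a median of -0.34, with 23 negative, and in 12 both Vil-CREPTKO libraries lay below both WT libraries. The 18 gamma-like genes had a median of -0.46, with 15 negative and 9 without overlap. Both classes were higher in WT replicate 2 than in WT replicate 1. WT replicate 2 reached 1.5 times WT replicate 1 in 9 type I-like genes (33.3%) and in 9 gamma-like genes (50%). Its median deviation was 0.39 in the type I-like and 0.58 in the gamma-like genes. Without WT replicate 2 the class medians were -0.14 and -0.11, and without WT replicate 1 they were -0.62 and -0.77. No difference between the classes was tested, since the genes of a class are not replicates.

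The antiviral effectors (17 genes) had a log2 fold change with a median of -0.52, with 14 negative and 9 without overlap below WT. The median was -0.18 without WT replicate 2. Oas1g, whose family makes the oligoadenylates that activate RNase L, stood at 12.6 and 14.1 CPM in the WT libraries and at 5.43 and 4.95 CPM in the Vil-CREPTKO libraries. The groups were far apart beside the spread within each, at 13.4 ± 1.04 CPM against 5.19 ± 0.34 CPM (SD, n = 2), so that the Vil-CREPTKO mean was 38.8% of WT. Its log2 fold change was -1.37 (SE 0.18), between -1.46 and -1.28 under all alternatives. Oas1a, its close relative and neighbour on the chromosome, stood at 28.5 and 27.2 CPM in WT and at 17.9 and 20.5 CPM in Vil-CREPTKO, giving a log2 fold change of -0.54 (SE 0.14), and its groups did not overlap either.

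The rest of the oligoadenylate synthetase family was not uniform. Oas2 stood at 5.33 and 5.73 CPM in WT and at 2.71 and 3.46 CPM in Vil-CREPTKO, with a log2 fold change of -0.84 (SE 0.25). Oasl2 had a log2 fold change of -0.52 (SE 0.17), also without overlap. Oas3 stood at 27.6 and 43.0 CPM in WT and at 41.0 and 32.1 CPM in Vil-CREPTKO, so its groups overlapped, and Oasl1 overlapped likewise with a log2 fold change of -0.09 (SE 0.20). WT replicate 2 was not the high library in Oas1a, and it exceeded WT replicate 1 by a ratio of 1.12 in Oas1g and 1.08 in Oas2, less than in most of the 47 genes.

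Isg15 had the highest length-scaled level of the effectors, at 29.0 CPM per kb of exon in WT and 23.4 in Vil-CREPTKO. Its values of 16.8 and 27.1 CPM in WT and 19.4 and 16.01 CPM in Vil-CREPTKO overlapped, and its log2 fold change of -0.31 (SE 0.23) became 0.08 without WT replicate 2. Ifit3 stood at 4.80 and 7.54 CPM in WT and at 3.34 and 3.44 CPM in Vil-CREPTKO, giving a log2 fold change of -0.86 (SE 0.28) that was -0.50 without WT replicate 2. Its relatives Ifit1 and Ifit2 had log2 fold changes of -0.34 (SE 0.23) and -0.64 (SE 0.32). Ifit2 did not overlap between the groups and Ifit1 did.

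Usp18, the protease that removes ISG15 and dampens interferon signalling, did not overlap between the groups, with a log2 fold change of -0.67 (SE 0.28). That fold change was -0.18 without WT replicate 2. Rsad2 (viperin, -0.33, SE 0.22) and Mx2 (a dynamin-like GTPase, -0.68, SE 0.37) did not overlap either. Ifi44 (-0.61, SE 0.39), Xaf1 (-0.06, SE 0.20), Bst2 (tetherin, 0.08, SE 0.16) and Mx1 (0.17, SE 0.31) overlapped. The values of Rsad2, Mx2 and Ifi44 were -0.25, -0.40 and -0.15 without WT replicate 2.

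The 4 nucleic acid sensors had a log2 fold change with a median of -0.44, and WT replicate 2 was the highest library in all 4. Their median was 0.004 without that library. Ifih1 (MDA5, a sensor of long double-stranded RNA) had the highest mean length-scaled level, at 8.44 CPM per kb in WT and 8.24 in Vil-CREPTKO. It stood at 57.5 and 80.3 CPM in WT and at 72.6 and 61.9 CPM in Vil-CREPTKO, with overlap. Its log2 fold change of -0.035 (SE 0.17) became 0.23 without WT replicate 2. Ddx58 (RIG-I, a sensor of RNA ends, -0.46, SE 0.15) and Dhx58 (LGP2, their regulator, -0.42, SE 0.23) did not overlap. Their values were -0.28 and -0.17 without WT replicate 2. Zbp1, a sensor of Z-form nucleic acid that can start necroptosis, stood at 18.7 and 40.9 CPM in WT and at 20.9 and 21.6 CPM in Vil-CREPTKO. Only WT replicate 2 was apart, and the log2 fold change of -0.49 (SE 0.30) became 0.18 without it.

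The 3 ADP-ribosylation and ubiquitination enzymes had a log2 fold change with a median of -0.09, overlapped between the groups in all 3, and were highest in WT replicate 2 in all 3. Their median was 0.25 without that library. Parp9, the partner of the ubiquitin ligase Dtx3l, had the highest length-scaled level, at 15.5 CPM per kb in WT and 14.5 in Vil-CREPTKO. It stood at 57.3 and 94.0 CPM in WT and at 71.6 and 69.9 CPM in Vil-CREPTKO, and its log2 fold change of -0.10 (SE 0.20) became 0.31 without WT replicate 2. Parp14 and Dtx3l had log2 fold changes of -0.06 (SE 0.19) and -0.09 (SE 0.16), with overlap. Parp9 and Dtx3l overlap on opposite strands, and the strand setting of the counting was not given, so reads of the overlap cannot be told apart.

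Of the 5 STAT and IRF factors, Irf7 alone did not overlap. The median log2 fold change of the 5 was -0.03, and 0.17 without WT replicate 2. Irf7, the factor that amplifies type I interferon production, stood at 56.8 and 74.8 CPM in WT and at 38.1 and 36.2 CPM in Vil-CREPTKO. Its mean in Vil-CREPTKO was 56.5% of WT, a log2 fold change of -0.82 (SE 0.15) that ranged from -1.01 to -0.61 over the alternatives. Phrf1, which overlaps Irf7 on the opposite strand, stood at 80.5 to 91.2 CPM in the 4 libraries, with overlap between the groups.

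The other factors overlapped between the groups. Irf1, an early target of interferon gamma, stood at 125 and 164 CPM in WT and at 157 and 136 CPM in Vil-CREPTKO (0.02 on the log2 scale, SE 0.17). Irf8 stood at 84.6 and 126 CPM in WT and at 99.3 and 105 CPM in Vil-CREPTKO (-0.04, SE 0.18). Irf9, the DNA-binding part of the ISRE complex, stood at 50.6 and 48.7 CPM in WT and 48.6 and 48.8 CPM in Vil-CREPTKO (-0.03, SE 0.11). Its partner Stat2 stood at 48.95 and 56.1 CPM in WT and at 62.6 and 47.1 CPM in Vil-CREPTKO (0.06, SE 0.16). Irf9 overlaps Rnf31 on the same strand, and some of its reads could belong to that gene. The same holds for Irf8 and the protein-coding gene Gm20388. Irf1 had the highest length-scaled level of the factors, 36.3 CPM per kb in WT and 36.8 in Vil-CREPTKO.

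The GBPs (6 genes) are guanylate-binding proteins, large GTPases that coat intracellular microbes. All were low, at 0.149 to 1.45 CPM per kb in WT, 5 of the 6 were negative, and the median log2 fold change was -0.38. That median was -0.26 without WT replicate 2. Gbp3 (-0.90, SE 0.32), Gbp6 (-0.83, SE 0.54), Gbp7 (-0.48, SE 0.25) and Gbp2 (-0.28, SE 0.29) did not overlap. In that order, their values were -0.56, -0.65, -0.10 and -0.12 without WT replicate 2. Gbp4 (-0.24, SE 0.26) overlapped. Gbp8, with the highest mean length-scaled level of the 6, had the higher mean in Vil-CREPTKO, at 5.27 and 2.99 CPM in WT and 5.59 and 5.11 CPM in Vil-CREPTKO. There WT replicate 2 was the lowest library, and the log2 fold change of 0.37 (SE 0.30) became 0.02 without it. Gbp4, Gbp8 and Gbp9 overlap on the same strand, as do Gbp6 and Gm43302. Some of their reads could belong to a gene they overlap.

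The 7 IRGs, GTPases that act on the vacuoles of intracellular pathogens, had the lowest median log2 fold change of any role, -1.02, and all 7 were negative. WT replicate 2 was the highest library in all 7 and at least 1.5 times WT replicate 1 in 6. Without WT replicate 2 their median was -0.06, and without WT replicate 1 it was -1.50. Igtp (IRGM3) had the highest length-scaled level, 16.8 CPM per kb in WT and 8.27 in Vil-CREPTKO. Its values were 14.9 and 53.0 CPM in WT and 13.7 and 19.7 CPM in Vil-CREPTKO, so WT replicate 1 lay between the Vil-CREPTKO libraries. The log2 fold change of -1.02 (SE 0.47) became 0.17 without WT replicate 2.

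Iigp1 and Tgtp1 had the most negative log2 fold changes of the 47 genes at low counts. Iigp1 had 8 and 99 counts in the WT libraries against 17 and 8 in the Vil-CREPTKO libraries, and its log2 fold change of -1.97 (SE 1.01) became 0.80 without WT replicate 2. Tgtp1 stood at 0.490 and 0.935 CPM in WT and at 0.207 and 0.204 CPM in Vil-CREPTKO. Its groups did not overlap, with a log2 fold change of -1.78 (SE 0.62), and -1.24 without WT replicate 2. Its relative Tgtp2, at a log2 fold change of -0.33 (SE 0.37), overlapped and became 0.26.

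Irgm2 stood at 20.1 and 42.0 CPM in WT and at 14.2 and 15.5 CPM in Vil-CREPTKO. Its groups did not overlap, and the log2 fold change of -1.07 (SE 0.29) was -0.44 without WT replicate 2. Ifi47, at 22.7 and 38.1 CPM in WT and 16.2 and 16.9 CPM in Vil-CREPTKO, gave -0.88 (SE 0.23), and -0.45 without that library. Irgm1 overlapped, with a log2 fold change of -0.36 (SE 0.19), and -0.06 without WT replicate 2. Irgm2 and Igtp overlap on the same strand, as do Tgtp1 and Gm12185, so some of their reads could belong to either gene of the pair. Olfr56 overlaps Ifi47 on the same strand and Tgtp1 and Tgtp2 on the opposite strand. It stood at 1.21 and 3.13 CPM in WT and at 0.621 and 0.998 CPM in Vil-CREPTKO, without overlap between the groups. How reads shared with Olfr56 were assigned was not given. In Irgm2, Tgtp1 and Ifi47 both Vil-CREPTKO libraries also lay below WT replicate 1, while in Irgm1, Igtp, Iigp1 and Tgtp2 at least 1 did not.

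**Figure D4:**
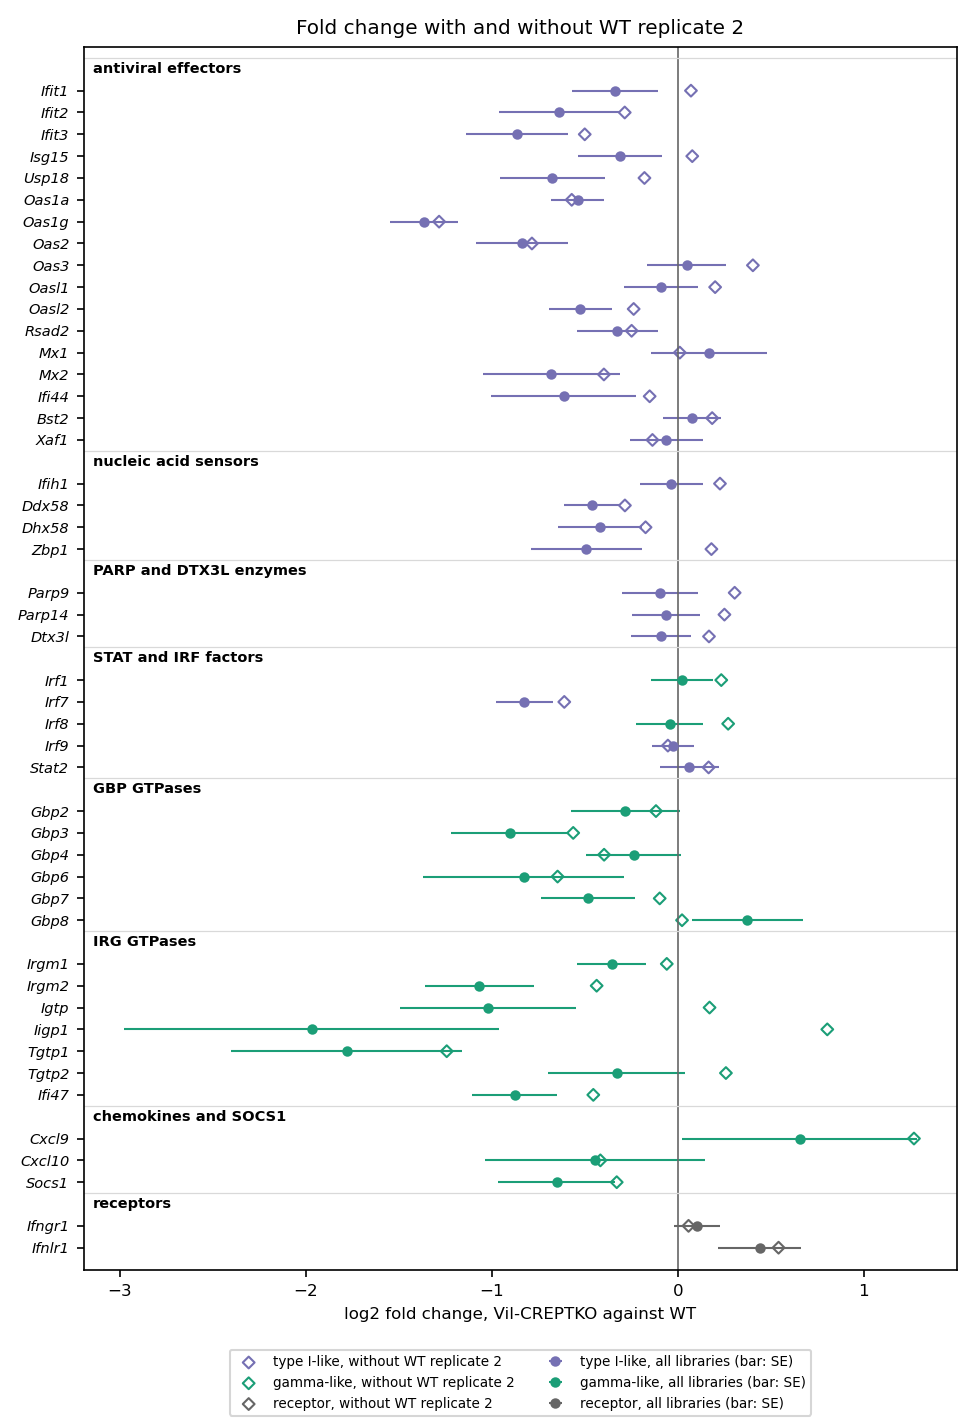
Log2 fold change of Vil-CREPTKO against WT (x axis) for the 47 genes by role. Filled circles use all 4 libraries with bars of 1 SE, and open diamonds leave out WT replicate 2. Oas1g stands at -1.37 and -1.28, whereas Igtp and Iigp1 cross 0.

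The chemokines Cxcl9 and Cxcl10, which draw in T cells, were at the bottom of the range. Cxcl9 stood at 0.235 and 0.488 CPM in WT and at 0.736 and 0.407 CPM in Vil-CREPTKO, the largest positive log2 fold change of the 47 genes at 0.66 (SE 0.63), with overlap. Cxcl10 had a log2 fold change of -0.44 (SE 0.59) at 0.276 to 0.447 CPM. Socs1, the feedback inhibitor of JAK kinases, had the highest length-scaled level of the 3 (1.25 CPM per kb in WT and 0.793 in Vil-CREPTKO). It stood at 2.90 and 4.35 CPM in WT and at 2.03 and 2.59 CPM in Vil-CREPTKO, without overlap, a log2 fold change of -0.65 (SE 0.32).

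The receptor chains did not share the lower values. Ifngr1, a chain of the interferon gamma receptor, had the highest length-scaled level of the 47 genes (44.2 CPM per kb in WT and 47.6 in Vil-CREPTKO). It stood at 130 and 122 CPM in WT and at 135 and 136 CPM in Vil-CREPTKO, giving a log2 fold change of 0.10 (SE 0.12). Ifnlr1, the specific chain of the interferon lambda receptor, stood at 20.02 and 22.9 CPM in WT and at 36.2 and 22.1 CPM in Vil-CREPTKO. Only Vil-CREPTKO replicate 1 was high, and the log2 fold change of 0.44 (SE 0.22) was 0.04 without it.

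The interferons were at or near 0 counts in the crypts. Ifnb1, Ifna1, Ifna2, Ifna4, Ifne, Ifnl2 and Ifnl3 had 0 counts in all 4 libraries, which allows up to 3 counts per library (0.0608 to 0.0635 per library, as CPM of the total). Ifng, made by T and NK cells, had 1 and 6 counts in the WT libraries against 4 and 1 in the Vil-CREPTKO libraries, and Ifnk had 2 and 6 against 1 and 7. The 6 counts in WT replicate 2 were too few to set that library apart from Vil-CREPTKO replicate 1, with 4. The other receptor chains overlapped between the groups, with log2 fold changes of -0.06 (SE 0.12) for Ifnar1, 0.01 (SE 0.20) for Ifnar2, -0.14 (SE 0.15) for Ifngr2 and -0.05 (SE 0.15) for Il10rb.

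Of 33 further genes of interferon production and signalling, 23 were tested. Of these, 3 fell in Vil-CREPTKO at an adjusted p under 0.05 and 0 rose, by edgeR and by DESeq2 alike. Of all genes, 2.29% fell and 0.423% rose at that threshold in edgeR. The median log2 fold change was -0.06, or 0.03 without WT replicate 2. In 7 both Vil-CREPTKO libraries lay below both WT libraries (30.4%, against 24.2% of all genes). At an unadjusted p under 0.05, 5 passed on the lower side and 1, Socs3, on the higher side, where 9.76% and 4.49% of all genes passed. All 3 that fell lie between the sensors and the induction of interferon, but genes of that step went both ways. Of 9 sensing and adaptor genes tested, 5 were negative and 4 positive by log2 fold change. Among the positive were Tbk1 (0.17, SE 0.14) and Myd88 (0.20, SE 0.15). Ticam1 (TRIF, the adaptor of TLR3) stood at 50.5 and 57.2 CPM in WT and at 30.6 and 27.5 CPM in Vil-CREPTKO, and its log2 fold change was -0.89 with an SE of 0.13 (adjusted p = 0.0107 in edgeR). Mavs, the adaptor of Ifih1 and Ddx58, stood at 80.8 and 93.9 CPM in WT and at 54.5 and 51.0 CPM in Vil-CREPTKO (-0.73, SE 0.13, edgeR adjusted p = 0.022). Ikbke, the kinase that activates IRF3 and IRF7 beside TBK1, stood at 52.1 and 39.9 CPM in WT and at 29.0 and 27.0 CPM in Vil-CREPTKO (-0.72, SE 0.15, edgeR adjusted p = 0.0491). In none of them did WT replicate 2 reach 1.5 times WT replicate 1, and only Ticam1 passed under every alternative.

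The adjusted p of Mavs was 0.0926 without WT replicate 2 and 0.0519 after a correction for GC content and length. That of Ikbke was 0.178 without WT replicate 1, and it also missed the threshold in 4 other fits (0.0591 to 0.0847).

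A second list held 34 interferon-stimulated genes outside the 47, of which 33 were tested. Like the pathway genes above, they were chosen with earlier results of these data known, so their counts are a description too. The log2 fold change was negative in 30 and positive in 3, with a median of -0.40, or -0.17 without WT replicate 2. Both Vil-CREPTKO libraries lay below both WT libraries in 15 of the 33 (45.5%), against 24.2% of all genes. At an unadjusted p under 0.05, 11 passed, all lower, where 9.76% of all genes passed on that side. Of the 33, Ifitm3 alone fell at an adjusted p under 0.05, where 2.29% of all genes did. Ifitm3, a membrane protein that blocks viral fusion, stood at 59.8 and 55.5 CPM in WT and at 28.0 and 36.3 CPM in Vil-CREPTKO, and its log2 fold change was -0.84 with an SE of 0.15 (adjusted p = 0.0238 in edgeR). It passed under every alternative. WT replicate 2 was the highest library in 23 of the 33 (69.7%), against 24.5% of all genes. It was at least 1.5 times WT replicate 1 in 3 (9.09%). That share was near the 6.62% of all genes and below the 38.3% of the 47 genes. Among those 3 was Ido1, the tryptophan-degrading enzyme induced by interferon gamma, at 9.58 and 27.2 CPM in WT and 11.8 and 10.2 CPM in Vil-CREPTKO. Ido1 was named after its values were seen.

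**Figure D5:**
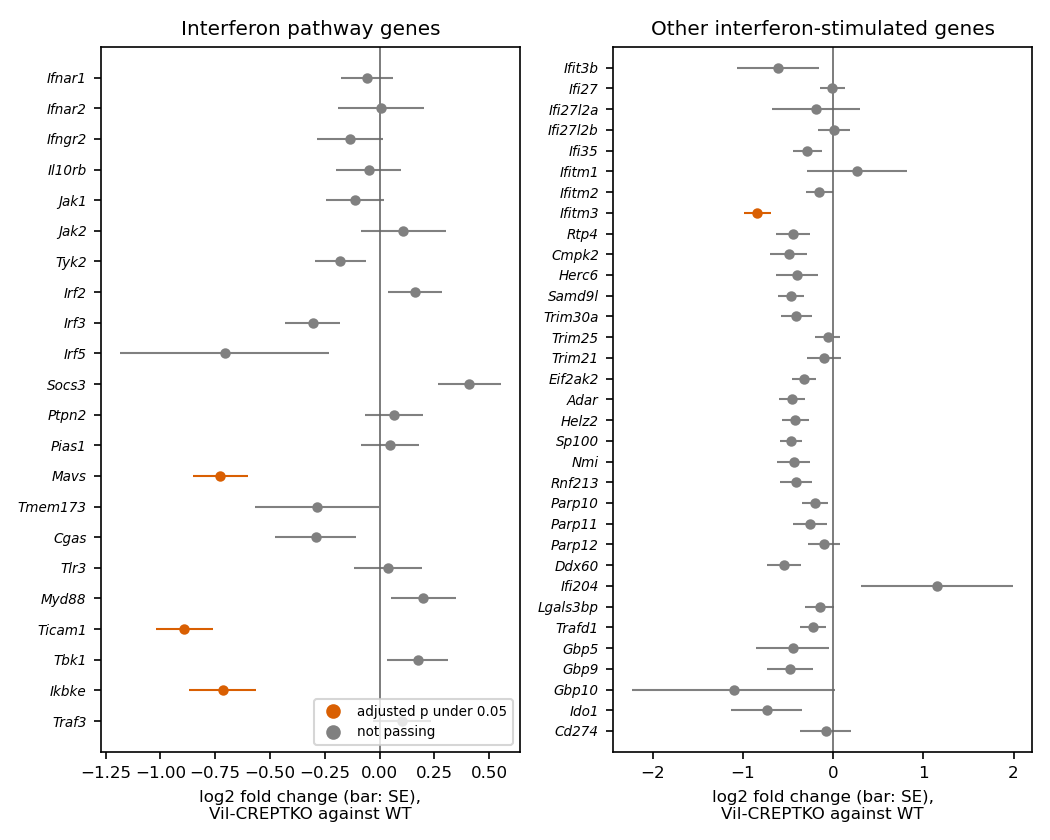
Log2 fold change of Vil-CREPTKO against WT (x axis, bars of 1 SE) for the tested interferon pathway genes reported here (left) and the other interferon-stimulated genes (right). Genes with an edgeR adjusted p under 0.05 are in orange, namely Mavs, Ticam1 and Ikbke on the left and Ifitm3 on the right, all below 0.

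The 10 T and NK cell markers summed to 938 and 743 CPM in WT and to 703 and 587 CPM in Vil-CREPTKO, and WT replicate 1 was the highest library in all 10. All 10 log2 fold changes were negative (median -0.39). The 7 macrophage and dendritic cell markers summed to 29.2 and 18.7 CPM in WT and to 43.6 and 21.3 CPM in Vil-CREPTKO. B and plasma cell markers summed to 15.9 and 14.8 CPM in WT and to 21 and 32.9 CPM in Vil-CREPTKO, with 3 of the 6 at least 1.5 times as high in WT replicate 2 as in WT replicate 1. Stromal and endothelial markers summed to 3.77 to 20.2 CPM, with 3 of the 8 at 0 counts in at least 1 library, and blood markers to 11.7 to 63.9 CPM; Vil-CREPTKO replicate 1 was the highest library in both. Villus enterocyte markers summed to 9650 and 12600 CPM in WT and to 17600 and 10800 CPM in Vil-CREPTKO. Of these 7 markers, 6 had a positive log2 fold change and 1 a negative one. Vil-CREPTKO replicate 1 was the highest library in 6. The part of any of these cells in the values of the 47 genes was not tested.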

How the data were processed

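RNA-seq of 4 crypt libraries was used, 2 per group, grouped by the sample titles. The authors deposited whole-number read counts per gene, 1 column per library. Per the study's methods and the submitters' processing notes, bases were called with CASAVA 1.8, reads were mapped to reference transcripts (GRCm38.p6) with Bowtie2 and quantified with RSEM. The other versions, the annotation and the strand setting are not given in the sources used here, and the sequencer is named differently in the methods and the labels. Of 53845 rows, 53360 (99.1%) matched GENCODE M21. Another 380 unnamed loci (0.178% to 0.247% of counts) stayed in the tests.

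The 47 genes and all lists were chosen with earlier results of these data known. Counts were fitted in R 4.3.3 with edgeR 4.0.16 (filterByExpr, TMM, glmQLFit, glmQLFTest, two-sided, Benjamini-Hochberg over 17504 genes), and calls needed an adjusted p under 0.05 and an absolute log2 fold change over 1. The SE was the log2 fold change over the square root of F. CPM was taken over tested genes after TMM, and per kb of exon. The code was checked on simulated counts. Within groups, counts differed by 49.8 (WT) and 70.1 (Vil-CREPTKO) chi-square units per gene, so no library was a copy. Depth allowed 3 counts (0.0608 to 0.0635 CPM) under a 0, for counting error only; with 2 libraries per group, the common biological coefficient of variation of 0.188 set the precision.

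Values in every library were given for called genes, the 3 largest and 3 smallest log2 fold changes, the highest length-scaled gene of each role, Irf1, Irf7, Irf8, Irf9, Stat2 and both receptor genes, ligands, and list genes with an adjusted p under 0.05. Other values in each library were added after they were seen. Alternatives were DESeq2 1.42.0, scaling by RLE, by the upper quartile or by library size, no filter, at least 10 counts in every library, any fold change, a replicate block, a GC content and length correction, and each library left out. The values of 1 pathway list member are not reported here.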

Additional observations from a re-analysis of the deposited data

How the results depend on the processing

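Over the alternatives, the median log2 fold change of the 47 genes stayed negative, from -0.62 to -0.10 when a library was left out, as did that of the type I-like (-0.62 to -0.14) and gamma-like genes (-0.77 to -0.11); in each the value nearest 0 came without WT replicate 2 and the lowest without WT replicate 1. Without a WT library, the lone WT library is assumed to vary like the Vil-CREPTKO libraries, and likewise for the other group. The count of the 47 called lower was 2 with DESeq2, 2 with library-size scaling (Oas1g and Irgm2 in both), 4 with no filter on low counts, 2 at any fold change, and 1 to 8 when a library was left out; the highest came without WT replicate 1. Over all genes, 235 were called lower and 52 higher. The lower count was 379 with library-size scaling, 450 with no filter, 400 at any fold change and 225 to 308 when a library was left out. The higher count was 87 with DESeq2, 163 with no filter and 62 to 135 when a library was left out, with 121 without WT replicate 1, 87 with WT replicate 2 left out and 135 when Vil-CREPTKO replicate 2 was left out. Pathway genes that fell numbered 1 after the GC content and length correction and 2 to 3 when a library was left out, and other interferon-stimulated genes that fell numbered 3 with no filter and 1 to 4 when a library was left out (4 without WT replicate 1). The cause of these changes was not tested. Library-size scaling moved the median of all genes to -0.10, and 42 of the 47 genes were then negative, against 36 with upper-quartile scaling. Of 562 values of single genes under alternatives, 37 moved by more than the spread between replicates, 25 of them without WT replicate 2.

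The labels do not say whether the replicate numbers pair the libraries, and the correlation given next cannot decide it. The correlation across genes of the replicate differences in the groups was 0.0277. With the replicate number as a block, edgeR called 269 genes lower and 67 higher, of the 47 genes 1 lower and 0 higher, and the median of the 47 was -0.34 (type I-like -0.32, gamma-like -0.45). Pathway genes that fell numbered 3 and other interferon-stimulated genes 1 under the block. With 2 libraries per group, differences smaller than the spread seen here could not be told from 0.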
